A study of Mus musculus with 8 samples.

Results

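Transient receptor potential (TRP) channels are cation channels of the cell surface and of internal membranes. In neurons they mostly carry sodium and calcium inward and depolarize the cell, and many open downstream of receptors that activate phospholipase C. In the arcuate nucleus TRPC channels have been tied to the acute response of neurons to leptin, and TRPM2 to the sensing of warmth in the hypothalamus. The genes described here are Trpc1, Trpc4, Trpc5, Trpc6, Trpc7, Trpm2, Trpm3, Trpm7 and Trpv2. They are 9 of the 45706 genes in the deposited table and 9 of its 28 TRP genes, and they were chosen by name. The choice was made with earlier results of these data known.

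The libraries come from translating ribosome affinity purification of hypothalamic tissue. In this method ribosomes that carry a GFP-tagged RpL10a protein are captured with anti-GFP antibodies, which gives the immunoprecipitate (IP), and RNA of the whole homogenate gives the input. There were 4 IP and 4 input libraries, each made from a pool of 3 random-fed animals, male and female, that were 11 to 12 weeks old. All 8 libraries carry the genotype Mff fl/fl, AgRP-IRES-Cre tg/wt and RpL10a-GFP fl/wt. Cre expressed from the Agrp locus thus both deletes Mff, the gene of a mitochondrial fission factor, and switches on the tagged ribosomal protein, in any cell with a history of Agrp expression. Mff wt/wt controls are not analysed here, so the comparison is of IP with input within the knockout and says nothing of the deletion itself.

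Libraries held 39.9 to 74.6 M estimated counts (M, mega). Mff, the targeted gene, stood at 112 to 132 counts per M (CPM) in input and at 64.0 to 71.2 CPM in IP, which does not check the deletion, since reads outside the deleted part count too. Agrp stood at 2.64 to 4.38 CPM in input and at 683 to 1083 CPM in IP. Input also held RNA of other hypothalamic neurons, whose marker Pmch had a mean of 295 CPM in input and 81.0 CPM in IP. The share of arcuate cells in the input was not tested. All 8 AgRP neuron markers listed were higher in IP. Markers of other cells were mostly lower, with all 8 astrocyte and all 10 oligodendrocyte lineage markers called lower. Only 4 of 10 vascular markers and 3 of the 7 choroid plexus markers tested were called lower. Summed over 8 astrocyte markers, input libraries stood at 2585 to 3225 CPM and IP libraries at 781 to 1046 CPM. Summed over 10 microglia markers, they stood at 69.97 to 86.4 CPM and at 26.0 to 31.5 CPM. IP replicate 3 stood apart, with the lowest summed AgRP neuron markers (3030 CPM, against 3443 to 4688 CPM in the other IP libraries) and the highest summed astrocyte, oligodendrocyte and vascular markers. In bulk samples of this kind fewer cells of a type and less RNA per cell cannot be told apart.

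**Figure D1:**
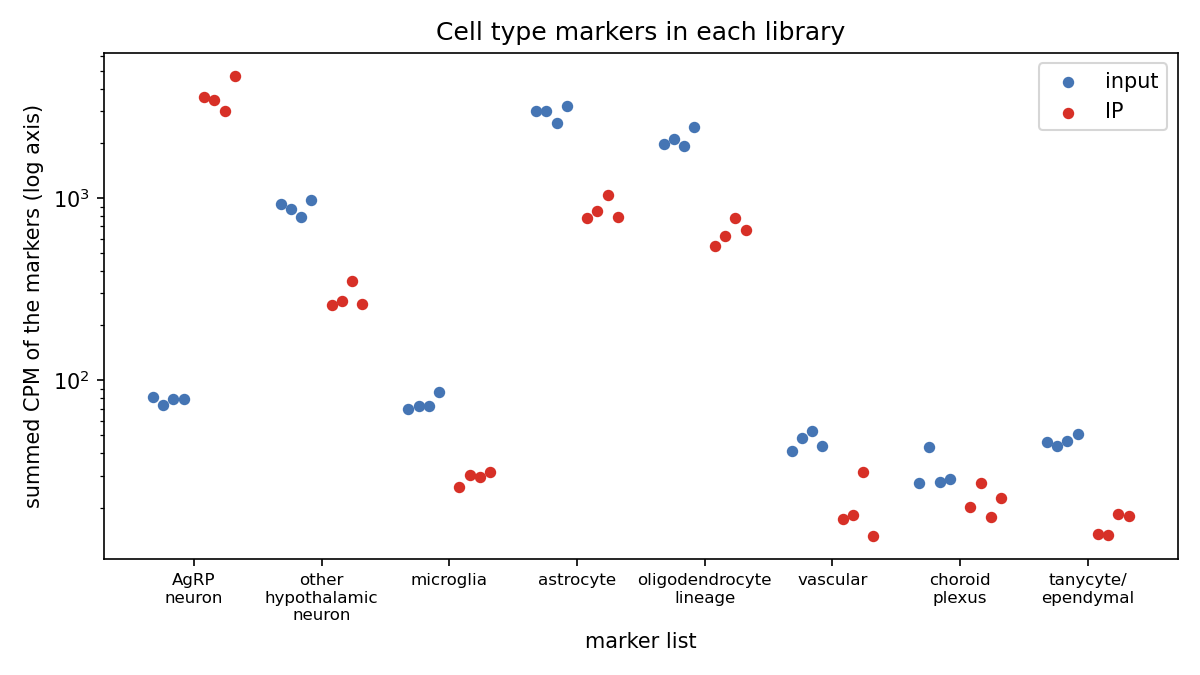
Summed CPM of the markers of each cell type (log axis) in the 4 input libraries (blue) and the 4 IP libraries (red), each point being 1 library. AgRP neuron markers lie at 73.3 to 81.4 CPM in input and at 3030 to 4688 CPM in IP, while markers of astrocytes, oligodendrocytes, microglia and tanycytes lie lower in every IP library than in every input library.

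The TRPC members are close relatives, so it matters that their reads could be told apart. The stretch that codes for the TRP box, a conserved segment just after the last membrane span, is shown because it is a signature of the family. Each stretch is 60 bases of coding sequence, read 5′ to 3′ from the longest protein-coding transcript of GENCODE release M21 (GRCm38), with the 18 bases of the TRP box in capitals.
Trpc1: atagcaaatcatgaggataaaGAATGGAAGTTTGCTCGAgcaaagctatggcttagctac
Trpc4: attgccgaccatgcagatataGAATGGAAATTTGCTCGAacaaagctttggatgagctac
Trpc5: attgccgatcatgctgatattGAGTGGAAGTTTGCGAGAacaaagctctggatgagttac
Trpc6: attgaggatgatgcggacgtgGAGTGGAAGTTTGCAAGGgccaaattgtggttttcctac
Trpc7: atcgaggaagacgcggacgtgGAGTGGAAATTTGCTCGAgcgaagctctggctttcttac
The stretch spans exons 7 and 8 in Trpc4 (chr3:54299259-54302153, plus strand) and in Trpc5 (chrX:144388299-144411617, minus strand), exons 8 and 9 in Trpc6 (chr9:8655367-8656595, plus strand) and in Trpc7 (chr13:56783791-56789607, minus strand), and exons 11 and 12 in Trpc1 (chr9:95708342-95708651, minus strand). In this stretch Trpc4 and Trpc5 shared 51 of 60 bases, Trpc6 and Trpc7 shared 47 of 60, and Trpc1 and Trpc4 shared 48 of 60, so the stretch alone does not set the pairs apart. Over aligned coding bases Trpc4 and Trpc5 were 71.7% and Trpc6 and Trpc7 72.4% identical, and the 8 other pairs were 62.2% to 67.0% identical. Of the 31-base words in the longest transcript of a member, between 0.00% (Trpc4, Trpc6 and Trpm7) and 5.07% (Trpv2) occurred in a transcript of another gene.

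All 9 genes passed the filter on low counts, and the lowest estimated count of a member in any library was 47 (Trpc6, input replicate 4). Of the 9, 2 were higher in IP, 4 were lower and 3 did not pass the test. Trpc4 and Trpc6 were the genes that rose, and Trpc5, Trpc7, Trpm3 and Trpm7 the genes that fell. Over all 17000 genes tested with edgeR's quasi-likelihood test, 45.4% passed an adjusted p of 0.05, 24.5% as higher in IP and 20.9% as lower. The share of the members that passed, 6 of 9, stands against that background. Whether the shares differ was not tested, so the count is no result about TRP genes. At 2-fold or more, 2 members were higher and 2 lower, against 8.37% and 12.3% of all genes. The median log2 fold change was -0.50 over the members and -0.01 over all genes tested. Higher genes made up 54.1% of all calls, 43.3% with upper quartile factors and 61.6% with library totals alone, and the median of all genes was -0.15 and 0.09 under these scalings. No member that passed the test changed direction under either.

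**Figure D2:**
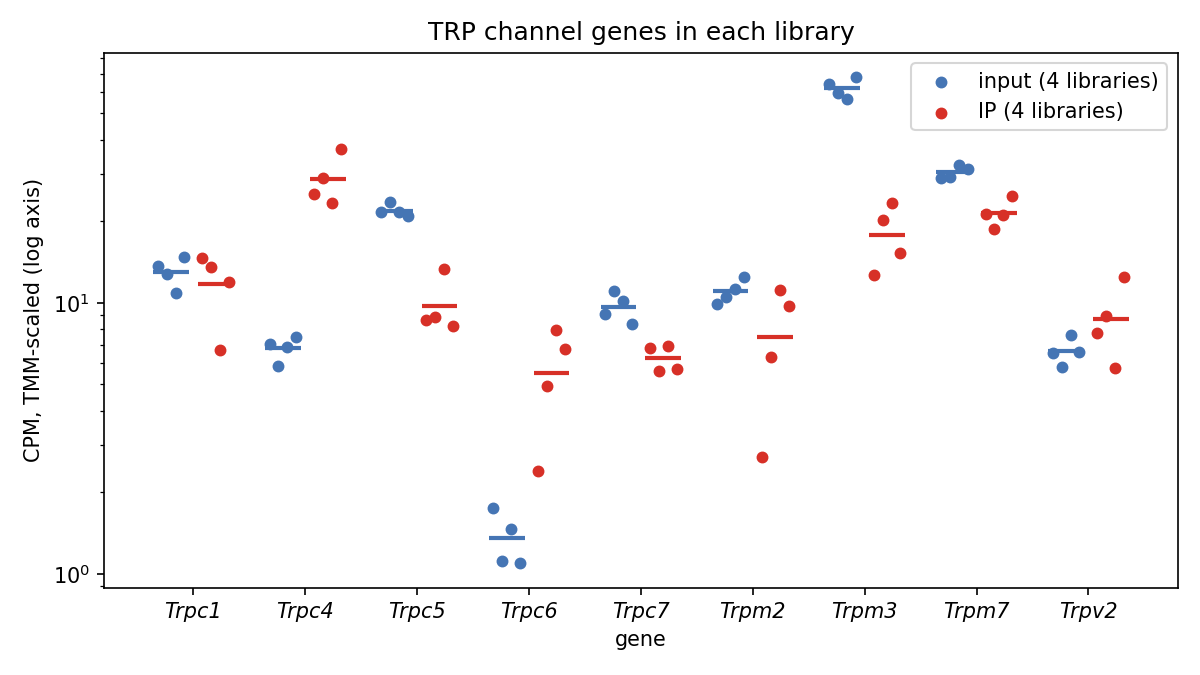
Level of each of the 9 TRP genes in CPM (log axis) in the 4 input libraries (blue points) and the 4 IP libraries (red points), with horizontal lines at the means. The points of the fractions do not overlap for Trpc4, Trpc5, Trpc6, Trpc7, Trpm3 and Trpm7, and they overlap for Trpc1, Trpm2 and Trpv2.

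TRPC1, TRPC4 and TRPC5 assemble into joint channels, in which TRPC4 or TRPC5 supplies the activity and TRPC1 alters conductance. Their genes moved apart, with Trpc4 higher in IP, Trpc5 lower and Trpc1 not past the test.

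Trpc4 (ENSMUSG00000027748, chromosome 3, 54156035 to 54318471, plus strand, GRCm38) stood at 7.03, 5.84, 6.85 and 7.495 CPM in input replicates 1 to 4 and at 25.1, 28.8, 23.3 and 37.0 CPM in IP replicates 1 to 4. Every IP library lay above every input library. Its log2 fold change was 2.07 ± 0.17 (SE, n = 4 libraries per fraction; edgeR adjusted p = 1.92e-06), a 4.20-fold difference of means. The change exceeded the spread between libraries. Over the 19 alternatives it ran from 1.93 to 2.20, each past the threshold.

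Trpc5 (ENSMUSG00000041710, chromosome X, 144381671 to 144688180, minus strand) stood at 21.6, 23.5, 21.6 and 20.95 CPM in input and at 8.67, 8.85, 13.4 and 8.22 CPM in IP. IP replicate 3 was well above the other IP libraries and still below every input library. This was a log2 fold change of -1.16 ± 0.17 (SE, n = 4; edgeR adjusted p = 0.000154), and without IP replicate 3 it was -1.35 (edgeR adjusted p = 4.17e-06). IP replicate 3 also held the most RNA of markers of other hypothalamic neurons, at a sum of 352 CPM against 259 to 273 CPM in the other IP libraries, and the part of this in the Trpc5 level was not tested. Trpc5os, a gene within the span of Trpc5, had 0 to 4 counts per library.

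The exchange between these relatives is plainest within a library, where no scaling between libraries enters. Per kb of transcript, the ratio of Trpc4 to Trpc5 was 0.389, 0.298, 0.379 and 0.428 in input replicates 1 to 4, and 3.47, 3.89, 2.09 and 5.39 in IP replicates 1 to 4. Trpc5 was thus the more abundant of the pair in each input library and Trpc4 in each IP library.

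Trpc1 (ENSMUSG00000032839, chromosome 9, 95705082 to 95750375, minus strand) stood at 13.7, 12.8, 10.9 and 14.8 CPM in input and at 14.7, 13.6, 6.72 and 11.9 CPM in IP. The fractions overlapped, and IP replicate 3 was the lowest library. Its log2 fold change was -0.16 ± 0.22 (SE, n = 4; edgeR adjusted p = 0.605), with a 95% interval from -0.65 to 0.34, and 0.04 without IP replicate 3.

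The 250 bases before the RefSeq start (GRCm38.p6) of Trpc4 and Trpc5 are shown because these related genes moved in opposite directions. Capitals mark matches, on either strand, to TATAAA (the TATA box), CCGCCC (a GC box), TTCNNNGAA (the motif of STAT factors) or TGACGTCA (the cyclic AMP response element).
Trpc4: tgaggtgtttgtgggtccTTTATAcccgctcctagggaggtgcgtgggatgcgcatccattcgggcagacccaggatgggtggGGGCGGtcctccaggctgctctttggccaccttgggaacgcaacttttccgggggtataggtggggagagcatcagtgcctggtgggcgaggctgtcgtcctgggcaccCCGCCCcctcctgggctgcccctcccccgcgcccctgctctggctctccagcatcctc
Trpc5: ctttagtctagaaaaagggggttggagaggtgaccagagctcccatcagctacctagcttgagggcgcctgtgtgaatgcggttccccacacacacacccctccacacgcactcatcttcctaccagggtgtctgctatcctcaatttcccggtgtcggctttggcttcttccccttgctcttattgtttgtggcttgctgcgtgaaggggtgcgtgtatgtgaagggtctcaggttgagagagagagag
The Trpc4 window (chr3:54155807-54156056, plus strand) held 2 matches to CCGCCC and 1 to TATAAA, with 12 CpG sites and a GC content of 66.4%. The Trpc5 window (chrX:144688181-144688430, minus strand) held none of the motifs, with 7 CpG sites and a GC content of 54.4%. Of all 32851 windows of this length, 32.7% held CCGCCC, 12.4% TATAAA, 7.02% TTCNNNGAA and 1.55% TGACGTCA. A match is a run of letters and not a measured site.

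TRPC6 and TRPC7 belong to the branch of the family that diacylglycerol opens. Trpc6 was higher in IP, while Trpc7 was lower.

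Trpc6 (ENSMUSG00000031997, chromosome 9, 8544142 to 8680741, plus strand) had the lowest CPM of the 9 in input, at 1.75, 1.12, 1.47 and 1.09 CPM, and stood at 2.41, 4.92, 7.94 and 6.76 CPM in IP. Every IP library lay above every input library, although IP replicate 1 was near the input range and IP replicate 3 was the highest. The log2 fold change was 2.02 ± 0.38 (SE, n = 4; edgeR adjusted p = 0.00121), with the largest SE of the 9. Input libraries held 47 to 96 counts of it. Without IP replicate 1 it was 2.27 and without IP replicate 3 it was 1.79, both past the threshold. Trpc6 is also known from vascular smooth muscle. The summed level of 10 vascular markers was lower in IP (14.0 to 31.4 CPM) than in input (40.7 to 53.0 CPM), with IP replicate 3 the highest of the IP libraries, and none of the 10 was at 0 in all IP libraries. Of the 10, 4 were lower in IP and 0 higher. Most of the sum in IP replicate 3 was Rgs5, at 19.4 CPM, against 5.98 to 8.85 CPM in the other IP libraries. What part RNA of vascular cells had in the Trpc6 level was not tested.

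Trpc7 (ENSMUSG00000021541, chromosome 13, 56773113 to 56895993, minus strand) stood at 9.08, 11.0, 10.2 and 8.33 CPM in input and at 6.83, 5.60, 6.95 and 5.68 CPM in IP. All IP libraries lay below all input libraries, by a narrow margin. On the log2 scale the change was -0.62 ± 0.17 (SE, n = 4; edgeR adjusted p = 0.0105), and the call ended without input replicate 2 (-0.54, edgeR adjusted p = 0.0510).

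Per kb of transcript, the ratio of Trpc6 to Trpc7 was 0.208, 0.109, 0.156 and 0.142 in input replicates 1 to 4, and 0.380, 0.948, 1.23 and 1.29 in IP replicates 1 to 4. Trpc7 was the more abundant of the pair in each input library. In IP the means of Trpc7 (1.78 CPM per kb) and Trpc6 (1.69 CPM per kb) lay within their spread.

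The TRPM channels differ widely in what opens them. Trpm3 and Trpm7 were lower in IP, and Trpm2 did not pass the test.

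Trpm3 encodes a channel opened by heat and by the steroid pregnenolone sulfate. The gene (ENSMUSG00000052387, chromosome 19, 22139046 to 22995410, plus strand) had the highest CPM of the 9 in input, at 64.1, 59.3, 56.3 and 68.0 CPM, and stood at 12.6, 20.2, 23.4 and 15.3 CPM in IP. All IP libraries were below all input libraries. The log2 fold change was -1.79 ± 0.17 (SE, n = 4; edgeR adjusted p = 7.70e-06), which is the largest fall of the 9, and it ran from -1.95 to -1.57 over the alternatives. Trpm3 is known from choroid plexus, ependyma and glia as well as from neurons. Of 8 astrocyte markers all were lower in IP, as were 10 of 10 oligodendrocyte lineage markers and 6 of 9 tanycyte and ependymal markers. Of 9 choroid plexus markers 7 were tested and 3 were lower. Summed choroid plexus markers stood at 27.4 to 42.9 CPM in input and at 17.8 to 27.4 CPM in IP, with Folr1 at 0 in all IP libraries. The choroid plexus list is split, since Kl, which encodes the klotho protein, rose by 0.99 ± 0.17 on the log2 scale (SE; edgeR adjusted p = 0.000543). What part RNA of these cells had in the fall of Trpm3 was not tested. Exons of Gm27151 and C330002G04Rik on the opposite strand overlap 628 of the 24437 exonic bases of Trpm3. They held at most 69.4 counts in a library, against at least 610 for Trpm3. The microRNA gene Mir204, which lies within Trpm3, had 0 counts in all 8 libraries.

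Trpm7 encodes a channel joined to a protein kinase, which admits magnesium, zinc and calcium. The gene (ENSMUSG00000027365, chromosome 2, 126791565 to 126876230, minus strand) stood at 29.0, 29.2, 32.2 and 31.2 CPM in input and at 21.3, 18.7, 21.2 and 24.7 CPM in IP. The groups did not overlap, and Trpm7 had the lowest fitted biological coefficient of variation of the 9 (0.121). The log2 fold change was -0.50 ± 0.11 (SE, n = 4; edgeR adjusted p = 0.00271). With offsets for the GC content and length of transcripts it shrank to -0.16 (edgeR adjusted p = 0.302), which ended the call. Trpm7 has the lowest GC content of the 9 transcripts, at 40.1%, and a length of 7.11 kb.

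Trpm2 encodes a calcium-permeable channel that ADP-ribose opens and that is abundant in microglia. The gene (ENSMUSG00000009292, chromosome 10, 77907722 to 77970563, minus strand) stood at 9.94, 10.5, 11.3 and 12.5 CPM in input and at 2.71, 6.33, 11.2 and 9.71 CPM in IP. The IP libraries ranged widely, with replicate 1 the lowest and replicate 3 within the input range. Its log2 fold change was -0.56 ± 0.34 (SE, n = 4; edgeR adjusted p = 0.210), with a 95% interval from -1.32 to 0.19. It was -0.28 without IP replicate 1 and -0.83 without IP replicate 3, and it passed the threshold only in limma-voom with sample weights (-0.77, limma adjusted p = 0.0309). Of 10 microglia markers 8 were lower in IP and 0 higher, and none was at 0 in all IP libraries. Their sum was 26.0, 30.2, 29.4 and 31.5 CPM in IP replicates 1 to 4, lowest in replicate 1 as Trpm2 was. The sum was highest in replicate 4, whereas Trpm2 was highest in replicate 3. Their part in the Trpm2 level was not tested.

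Trpv2, which encodes a channel that answers to strong heat and to stretch, was the only TRPV gene among the 9. The gene (ENSMUSG00000018507, chromosome 11, 62574486 to 62600515, plus strand) stood at 6.55, 5.81, 7.61 and 6.56 CPM in input and at 7.75, 8.94, 5.76 and 12.4 CPM in IP. IP replicate 3 was the lowest of all 8 libraries, and the other IP libraries were above every input library. The difference was a log2 fold change of 0.39 ± 0.23 (SE, n = 4; edgeR adjusted p = 0.194), with a 95% interval from -0.12 to 0.90. Without IP replicate 3 it passed the threshold (0.55, edgeR adjusted p = 0.0350), and without IP replicate 4 it stood at 0.18.

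On the log2 CPM scale, a 2-sided exact permutation test of each member gave p = 0.0286, the smallest that 70 arrangements allow, for Trpc4, Trpc5, Trpc6, Trpc7, Trpm3 and Trpm7 (n = 4 per fraction). For Trpc1, Trpm2 and Trpv2 the exact p-values were 0.629, 0.114 and 0.200. Fractions without overlap were seen for 6 of the 9 members and for 48.1% of all genes tested.

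**Figure D3:**
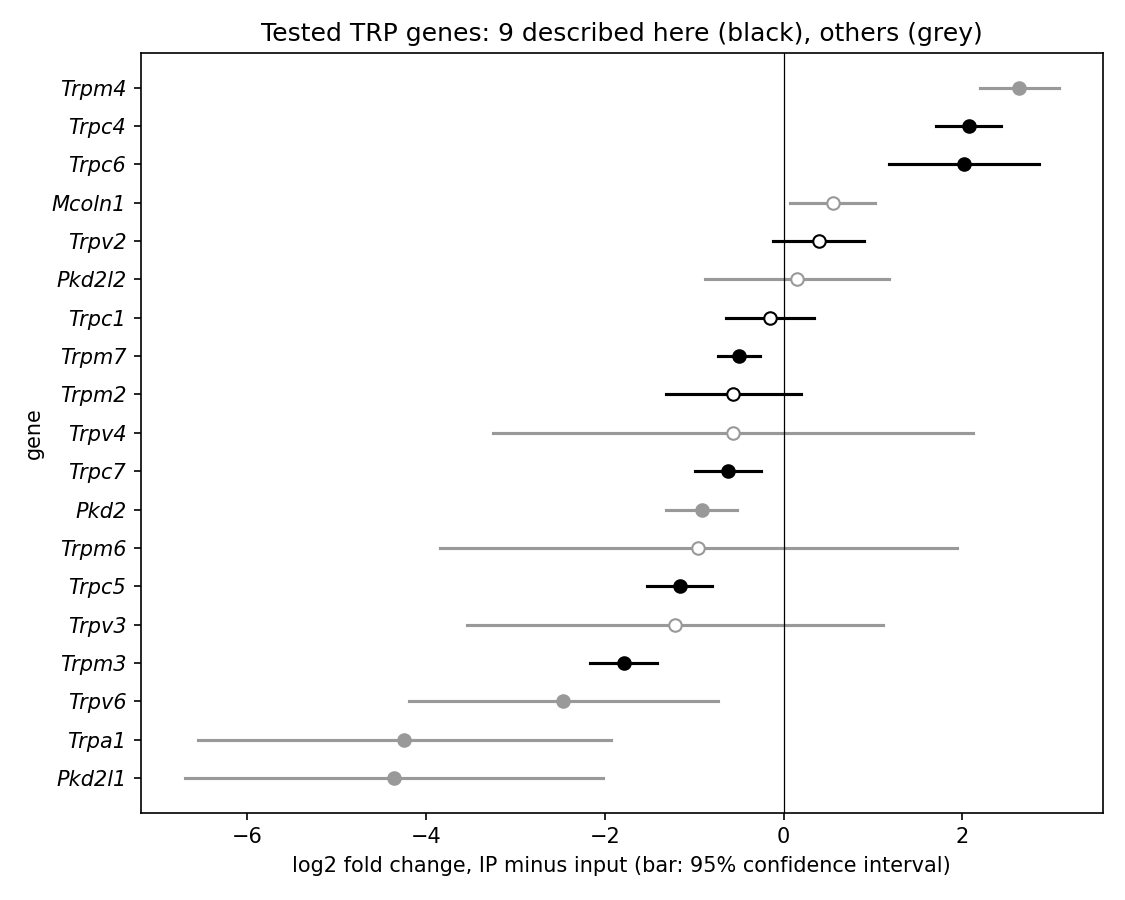
Log2 fold change of IP minus input for 19 of the 20 TRP genes that could be tested, with bars for the 95% confidence interval, black for the 9 genes described here and grey for others, and filled points for an adjusted p under 0.05. Trpm4, Trpc4 and Trpc6 lie above 1.9 with intervals clear of 0. Pkd2l1 and Trpa1 lie lowest, with wide intervals, and passed the filter on low counts only through input. The remaining gene is not shown.

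For an order of levels between genes, CPM were divided by the length in kb of the longest protein-coding transcript. In input the order of the members was Trpc5 (5.27 ± 0.26 CPM per kb, SD, n = 4), Trpm3 (5.03 ± 0.42), Trpm7 (4.28 ± 0.22), Trpc1 (2.86 ± 0.36), Trpc7 (2.74 ± 0.34), Trpv2 (2.28 ± 0.25), Trpc4 (1.96 ± 0.20), Trpm2 (1.52 ± 0.15) and Trpc6 (0.416 ± 0.095). Between neighbours the libraries did not overlap for Trpm3 against Trpm7, Trpm7 against Trpc1 and Trpm2 against Trpc6, and the other neighbours overlapped. In IP Trpc4 led at 8.23 ± 1.75 CPM per kb, apart from the other 8 members. Trpm7 (3.02 ± 0.35), Trpv2 (3.00 ± 0.96), Trpc1 (2.57 ± 0.77) and Trpc5 (2.35 ± 0.58) followed with overlapping libraries. Trpc7 (1.78 ± 0.21), Trpc6 (1.69 ± 0.74), Trpm3 (1.45 ± 0.39) and Trpm2 (1.03 ± 0.52) came last, each overlapping its neighbour. The places of Trpm3 and Trpm2 rest on the length used. With the mean length of its protein-coding transcripts in place of the longest of 12.3 kb, Trpm3 ranked 1 of 9 in input (13.0 CPM per kb), where Trpc5 came to rank 3, and 4 of 9 in IP (3.74 CPM per kb), with Trpc4 still first of the 9 in IP (8.60 CPM per kb). Trpm2 then stood at 3.93 CPM per kb in input (rank 5) and at 2.66 CPM per kb in IP (rank 6). Trpc1 also rose over 1.5 times, to 4.75 CPM per kb in input and 4.27 CPM per kb in IP.

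The summed level of all 28 TRP genes was 36.5 ± 1.2 CPM per kb in input and 35.9 ± 1.9 CPM per kb in IP (SD, n = 4), and the libraries overlapped. In CPM, without the division by length, the 9 members summed to 158 to 171 in input and to 102 to 132 in IP with no overlap, and the other TRP genes to 34.6 to 41.4 and to 33.2 to 40.1. Of the members, Trpm3 fell most in CPM, from a mean of 61.9 to 17.9, and Trpc4 rose most, from 6.80 to 28.6. Shares of the sum per kb also differed between fractions. Trpc4 went from 5.36% ± 0.44 to 22.8% ± 3.7 of this sum and Trpc6 from 1.14% ± 0.27 to 4.68% ± 2.04. Trpc5 went from 14.5% ± 1.1 to 6.59% ± 1.80 and Trpm3 from 13.8% ± 0.8 to 4.06% ± 1.14. The sum per kb and the shares rest on the length of the longest transcript. With the mean length Mcoln1 stood above Trpc4 in IP, at 14.3 against 8.60 CPM per kb. Trpm3 in input then stood at 13.0 in place of 5.03 CPM per kb. Shares on that length were not calculated.

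**Figure D4:**
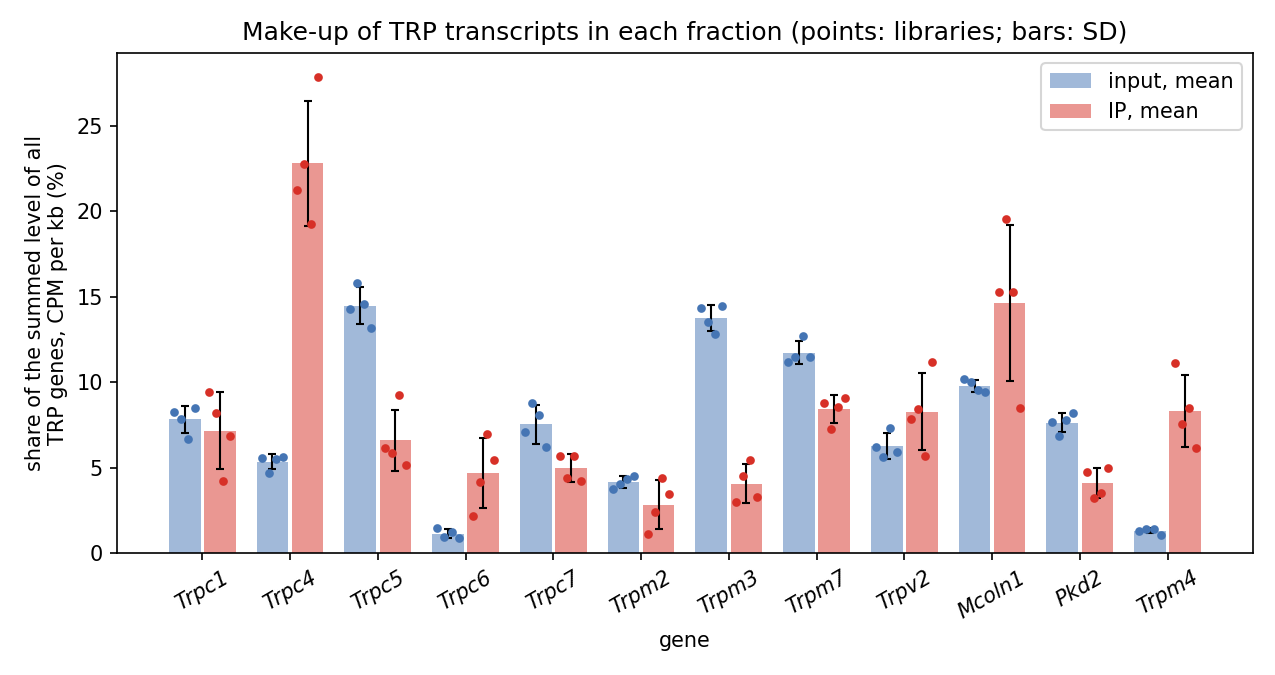
Share of each TRP gene in the summed level of all TRP genes, in percent of CPM per kb, for the 9 genes described here and for Mcoln1, Pkd2 and Trpm4, with bars at the mean of 4 input libraries (blue) or 4 IP libraries (red), error bars of 1 SD and a point for each library. Trpc4 holds 22.8% of the sum in IP against 5.36% in input, and Trpc5 and Trpm3 go the other way. Lengths are those of the longest protein-coding transcript, and the shares depend on that choice.

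Among the 19 other TRP genes 11 could be tested, and 1 was higher in IP, 5 were lower and 5 did not pass the test. Trpm4, which encodes a channel that intracellular calcium opens and that passes sodium and potassium but not calcium, had the highest fold change of the 20 TRP genes tested. Its level was 2.00, 2.16, 2.14 and 1.77 CPM in input and 16.1, 11.7, 12.5 and 9.96 CPM in IP, a log2 fold change of 2.64 ± 0.20 (SE, n = 4; edgeR adjusted p = 1.35e-06). Its libraries did not overlap. Pkd2, the gene of a polycystin channel of the primary cilium, fell by 0.92 on the log2 scale (SE 0.18, n = 4; edgeR adjusted p = 0.00163), from 14.6 ± 1.5 to 7.72 ± 1.79 CPM (SD). Pkd2l1, a channel gene that marks neurons in contact with cerebrospinal fluid, was lower too, at 45 to 108 counts per input library against 0, 2, 15 and 0 counts in IP. Its log2 fold change of -4.36 ± 1.07 (SE; edgeR adjusted p = 0.00596) was -6.52 without IP replicate 3. Trpa1, an irritant receptor gene, was called lower with 67 counts in all input libraries and 3 in all IP libraries. Trpv6 was called lower at 11 to 18 counts per input library and 1 to 4 per IP library (edgeR adjusted p = 0.0241). That call held in 10 of 18 alternatives, and among others it ended without any 1 of the input libraries and with the replicate block. Pkd2l1, Trpa1 and Trpv6 passed the filter on low counts only through input. The filter thus favoured a call of lower for them, and these calls carry little weight.

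The lysosomal channel gene Mcoln1 stood below Trpc5, Trpm3 and Trpm7 in input and below the mean of Trpc4 in IP, at 3.56 ± 0.13 CPM per kb in input and 5.22 ± 1.58 CPM per kb in IP (SD, n = 4). With the mean transcript length it stood at 9.79 CPM per kb in input and at 14.3 CPM per kb in IP, above Trpc4 there. Its log2 fold change of 0.55 ± 0.22 (SE; edgeR adjusted p = 0.0574) passed the threshold without IP replicate 4 (0.72, edgeR adjusted p = 0.00482). Pkd2l2, Trpm6, Trpv3 and Trpv4 were not called, with wide intervals for the last 3. Trpm6 was called lower without IP replicate 4 (edgeR adjusted p = 0.0404) and Trpv3 without IP replicate 1 (edgeR adjusted p = 0.00934), and both were called lower by limma-voom (limma adjusted p = 0.0197 and 0.0373). Mcoln2, Mcoln3, Trpc2, Trpm1, Trpm5, Trpm8, Trpv1 and Trpv5 were too low to test. For Trpc2 this does not settle its level, since 98.98% of its 31-base words also occurred in transcripts of genes that overlap it. Trpv1, the capsaicin receptor gene, had 2 to 12 counts per input library and 0 or 1 per IP library, and Trpv5 had 0 in all 8.

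TRPC channels open downstream of receptors that activate phospholipase C, and genes of that route were listed beside the members. Each count in these lists, and in the other lists that follow, stands against 24.5% higher and 20.9% lower among all genes tested. A list near these shares is no result about it. Of 24 phospholipase C and diacylglycerol genes 6 were higher in IP, 5 lower and 13 not past the test, with a median log2 fold change of -0.19. Gna11, the gene of a G protein alpha subunit that activates phospholipase C, rose by 0.59 ± 0.09 on the log2 scale, and Dgkq, a diacylglycerol kinase gene, by 1.23 ± 0.20 (SE, n = 4; edgeR adjusted p = 0.000302 and 0.000454). The phospholipase genes Plcb1 (-1.99 ± 0.14) and Plcb4 (-1.40 ± 0.08) fell (SE; edgeR adjusted p = 8.40e-07 and 1.93e-07). Without input replicate 1, 2 or 4 only 3 of the 24 were lower. Over all genes 2862, 2886 and 2909 were then lower, against 3545 with all libraries. Of 15 genes of the synthesis and breakdown of the membrane lipid PIP2, which modulates many TRP channels, 3 were higher and 4 lower (median -0.08). The lipid kinase gene Pip5k1c rose by 0.69 ± 0.08 and the kinase gene Pip4k2a fell by 1.62 (SE 0.12; edgeR adjusted p = 2.29e-05 and 1.38e-06).

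Of 15 receptor genes upstream of TRPC currents 2 were higher in IP and 8 lower, with a median of -1.05. The higher genes were Ghsr and Lepr, the receptor genes of ghrelin and leptin, which are AgRP neuron markers as well. Lepr rose from 2.22 ± 0.33 to 11.0 ± 3.3 CPM (SD, n = 4), a log2 fold change of 2.30 ± 0.24 (SE; edgeR adjusted p = 1.61e-05). The serotonin receptor gene Htr2c fell from 40.9 ± 3.3 to 9.79 ± 2.72 CPM (edgeR adjusted p = 6.07e-06), and the glutamate receptor gene Grm5 from 57.3 ± 2.5 to 23.5 ± 4.8 CPM (edgeR adjusted p = 1.48e-05). Of 21 genes of proteins that bind TRPC channels 5 were higher and 8 lower (median -0.09). Slc9a3r1, which encodes a scaffold that holds TRPC4 and TRPC5 at the membrane, fell by 1.96 on the log2 scale (SE 0.23), and Fkbp1a, an immunophilin gene, rose by 0.90 ± 0.06 (edgeR adjusted p = 3.18e-05 and 3.96e-07). The calmodulin gene Calm2 rose by 0.33 ± 0.06.

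For the ligand of TRPM2, 12 genes of ADP-ribose metabolism were listed and 11 tested, of which 5 were higher and 1 lower (median 0.29). The lower gene was Cd38, which encodes an enzyme that makes ADP-ribose from NAD, at 13.5 ± 2.1 CPM in input and 4.75 ± 0.98 CPM in IP (SD, n = 4; log2 fold change -1.51 ± 0.19, SE; edgeR adjusted p = 7.47e-05). Sarm1, an NAD hydrolase gene, rose by 0.54 ± 0.10, and Parp2, a poly(ADP-ribose) polymerase gene, by 0.81 ± 0.19. Only 2 of the 11 were higher with upper quartile factors, and 3 were higher without input replicate 1, 2 or 3. With upper quartile factors 3 were lower. Counts over all genes moved too, to 3342 higher and 4384 lower with upper quartile factors, against 4171 and 3545. Without input replicate 1, 2 or 3 they were 3661, 3692 and 3683 higher. Of 14 magnesium transport genes, listed beside Trpm7, 6 were higher and 1 lower (median 0.17). Over all genes tested 24.5% were higher and 20.9% lower. Slc41a3, a magnesium carrier gene, rose by 1.56 ± 0.20 and Tusc3 by 1.02 ± 0.09, and Cnnm1 fell by 0.61 (SE 0.12). Leaving out IP replicate 2, 3 or 4 gave 2 lower genes in place of 1.

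For comparison, of 21 voltage-gated sodium, calcium and HCN channel genes tested, 9 were higher in IP, 6 lower and 6 not past the test, with a median log2 fold change of 0.04. The sodium channel gene Scn9a rose by 2.28 ± 0.12 (SE, n = 4; edgeR adjusted p = 8.72e-08) and the calcium channel gene Cacna1g fell by 1.81 (SE 0.18; edgeR adjusted p = 1.01e-05). A difference between these genes and the TRP genes was not tested.

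The genes with the profile most like that of a member were sought among 8159 genes of at least 10 CPM, by Pearson's r of log2 CPM over the 8 libraries, for the 3 members with the highest mean CPM. These values are a description, since any gene that separates the fractions correlates with any other. For Trpm3 they were Olig1 (r = 0.997), Pla2g16 (0.996) and Gpr37 (0.995). For Trpm7 they were Fmnl2 (0.990), Ank (0.985) and Hip1 (0.985). For Trpc4 they were Tmem222 (0.999), Mrpl33 (0.998) and Tgfbi (0.998). Olig1 is known as a gene of oligodendrocyte lineage cells. It stood at a mean of 82.8 CPM in input and 23.7 CPM in IP.

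**Figure D5:**
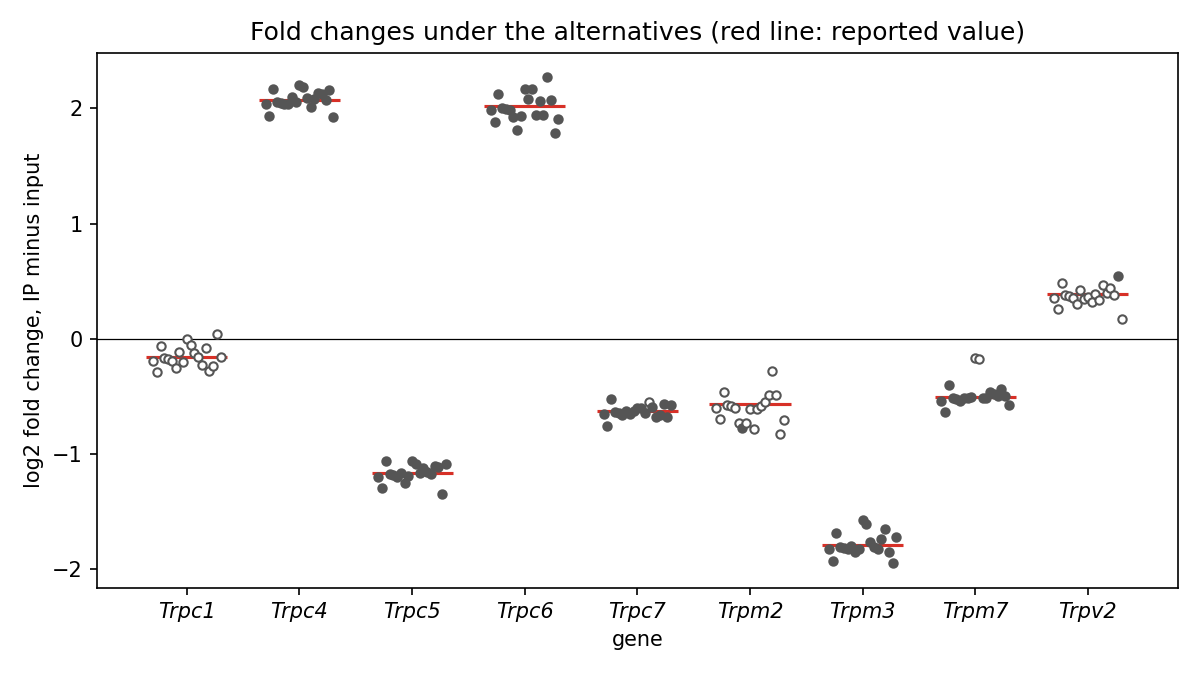
Log2 fold change of each of the 9 genes under the 19 alternatives (points, in a fixed order, filled where the adjusted p was under 0.05), with a red line at the reported value. Trpc4, Trpc6, Trpc5 and Trpm3 are filled throughout, Trpm7 has 2 open points near -0.17 from the GC and length offsets, Trpc7 has 1 open point, Trpc1 is open throughout, and Trpm2 and Trpv2 have 1 filled point each.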

How the data were processed

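The deposited table gives estimated counts per gene for each library, not normalized. Per the submitters' processing notes they come from Salmon 0.14.1 and build GRCm38.p6. For trimming, strandedness and the gene annotation, the settings were not given in the sources used here. Groups and replicate numbers come from sample titles. P-values measure the spread between libraries, in which pools of mice and steps of preparation cannot be told apart.

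Counts were rounded. Genes were kept with filterByExpr (minimum count 10), scaled by TMM factors and tested, IP against input, with edgeR 4.0.16 (R 4.3.3), quasi-likelihood, no covariate, with Benjamini-Hochberg adjustment over 17000 genes and a threshold of 0.05. SE was derived from the F statistic as |log2 fold change|/√F. CPM are TMM-scaled, log2 CPM used a prior count of 2. Counts compare shares of RNA, not amounts per cell. Coordinates, lengths and GC content come from GENCODE release M21 (GRCm38), promoter windows from RefSeq (matched by symbol for 9 of 9 members). The steps were also run on simulated counts in which few genes changed. That setting differs from these data, so it does not check the scaling used here. Alternatives were other factors, filters, DESeq2 1.42.0, limma 3.58.1, a replicate block, GC and length offsets and leaving out each library.

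Members and lists were chosen with earlier results of these data known. Named genes were the TRP genes, Mff, Agrp, the 2 list members of smallest p in each direction, and the 3 most like genes for each of 3 members. A result on 1 further gene is not reported here.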

Additional observations from a re-analysis of the deposited data

Results flagged for a closer look

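In 3 of 40 groups of 4 libraries (20 tested TRP genes in 2 fractions), 1 library lay further from the others than Dixon's 95% critical value for 4 samples allows. Chance gives about 1 in 20 such groups. Trpc5 stood at 13.4 CPM in IP replicate 3, against 8.22 to 8.85 CPM in the other IP libraries. Trpm6 stood at 2.49 CPM in IP replicate 4, against at most 0.301 CPM in the other IP libraries. Trpv3 stood at 1.47 CPM in IP replicate 1, against at most 0.173 CPM in the others.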

How the results depend on the processing

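Of 19 alternatives to the comparison, all kept Trpc4, Trpc6, Trpc5 and Trpm3 called and in their direction. Trpc7 lost its call without input replicate 2 and Trpm7 with GC and length offsets, alone or with the replicate block; the cause was not tested. Of the members only Trpc1 reversed, to 0.041 without IP replicate 3: leaving out a library gave -0.281 to 0.041 in the model and -0.332 to 0.041 as the single-gene difference. Pkd2l2, never called, reversed in limma-voom (-0.052, with sample weights -0.044), with the replicate block (-0.015) and without IP replicate 4 (range without a library -0.199 to 0.398). With 35 arrangements of 3 against 4 libraries no exact p lies below 0.0571, so 0 of the 9 members, against 6, could pass when a library was left out. Same-numbered IP and input libraries correlated in their deviations from group means at 0.048 to 0.084, and differently numbered ones at -0.038 to -0.002. Each library thus correlated best with its own number, though weakly. The labels do not say that a number marks a shared pool, so the reported test was unpaired. With the replicate block as covariate 2 members were higher and 4 lower, as without it, and 3878 of all genes were higher and 3714 lower, against 4171 and 3545.

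Counts in lists moved more, being small. For other TRP genes (1 higher, 5 lower), 2 were higher with library totals alone and with sample weights, 3 were lower with 1 CPM in 4 libraries, and leaving out a library gave 1 to 2 higher and 3 to 6 lower. Of phospholipase C and diacylglycerol genes 8 were lower with sample weights, and 3 to 6 without a library. Of ADP-ribose metabolism genes 2 were higher with upper quartile factors and 3 with the replicate block, GC and length offsets or both, and 3 to 5 without a library; 2 were lower with RLE factors, no filter, the 1 CPM filter and both forms of limma-voom, 3 with upper quartile factors and DESeq2, and 1 to 2 without a library. Of magnesium transport genes 2 were lower with sample weights, and 1 to 2 without a library. Depth limits the genes with few counts most, such as Pkd2l1, with 0 to 15 counts per IP library.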
